A study of Mus musculus with 12 samples.

Results

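The comparison sets B16.F10 mouse melanoma cells depleted of Prmt7 beside the same cells exposed to interferon gamma (IFN-γ), and asks which genes reached similar levels after either perturbation alone and which separated them. B16.F10 is a pigmented melanoma line of C57BL/6 origin. The siPRMT7 group received a small interfering RNA against Prmt7 for 72 h and no cytokine, and the IFN-γ group received siLuc, a control small interfering RNA against luciferase, equally long and IFN-γ in the final 24 h (from the labels' protocols). Each group had 3 of the 12 libraries of the series. The other libraries, 3 of siLuc cells without IFN-γ (untreated siLuc cells below) and 3 of siPRMT7 cells with it, shared the fit and give the reference levels. The labels describe 1 cell line, wild type for Prmt7 in the siLuc groups, and do not say whether the libraries of a group came from separate cultures, so p-values measure the spread between libraries, which may be technical. A contrast of these groups differs in 2 factors at a time, so a difference between them cannot be put down to either factor alone, and the levels of untreated siLuc cells are given beside most genes named.

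PRMT7 is a protein arginine methyltransferase that forms monomethylarginine on its substrates. IFN-γ, a cytokine of T cells and natural killer cells, binds a receptor that carries the kinases JAK1 and JAK2, which activate transcription factors that bind gamma-activated sites in promoters. The factors induced in turn, IRF1 and CIITA among them, switch on antigen presentation, cell-autonomous defence against microbes, chemokines and the checkpoint ligand PD-L1. A partly overlapping set of antiviral genes is also induced by type I interferons, through factors that bind interferon-stimulated response elements.

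The values, made by the authors, are on the log2 scale of the regularized log transform (rlog). Differences are siPRMT7 without IFN-γ minus siLuc with IFN-γ, so a negative difference means a higher level with IFN-γ. Of 55536 lines in the deposited table, 14407 genes averaged at least 4 on the rlog scale across the 12 libraries and were tested. Library totals were 26 to 31 M reads in the siPRMT7 group and 22 to 28.2 M reads in the IFN-γ group. The melanocyte genes Mitf, Sox10, Tyr, Tyrp1, Dct, Pmel and Mlana were present in both groups, with rlog values of 12.58 to 17.21. In both groups, 12 of 14 leukocyte markers and 9 of 13 markers of fibroblasts, endothelium and keratinocytes had values under 4 in every library. The 23 mitochondrially encoded genes tested held 2.69 ± 0.14% of the linear values summed over all genes tested in siPRMT7 cells. In IFN-γ-treated siLuc cells they held 1.12 ± 0.08% (SD, n = 3). The linear values were converted back from rlog values. The share leaves out mt-Co2, mt-Co3, mt-Atp6, mt-Atp8, mt-Nd3 and mt-Nd4l, which averaged under 4 on the rlog scale. One library stood apart at the genes that respond most to IFN-γ. Replicate 3 of the siPRMT7 group exceeded the other 2 libraries of its group at 19 of 20 genes, taken as those with the largest IFN-γ rise in siLuc cells. Its median excess over the lowest library of the group was 0.242% of the IFN-γ level, beside 0.017% for replicate 2. The cause was not tested, and the differences of the 10 genes furthest above with IFN-γ are given with and without replicate 3.

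Prmt7 itself (ENSMUSG00000060098.11, mm10 chr8:106210936-106252794, plus strand) stood at 6.16, 6.32 and 6.41 in the siPRMT7 libraries and 10.26, 10.24 and 10.26 in the IFN-γ libraries. The groups were far apart, with a difference of -3.96 (SE 0.08, limma adjusted p = 1.15e-20). Untreated siLuc cells had 10.25 ± 0.09, a level that IFN-γ moved by 0.01 (adjusted p = 0.938).

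Most genes differed between the 2 conditions, but few by much. Limma called 10630 of 14407 genes (73.8%) at an adjusted p under 0.05, 4991 higher in siPRMT7 cells (34.6%) and 5639 higher with IFN-γ (39.1%). That split depends on the scaling of the libraries, since centring each library on its median gave 6110 higher in siPRMT7 cells and 4598 higher with IFN-γ. The values of the 2 groups did not overlap for 11248 genes (78.1%), and the median size of a called difference was 0.42. Because so many small differences were called, genes were sorted by size. A gene counts as separated when limma's treat test placed the difference beyond 2-fold at an adjusted p under 0.05, and as similar when an equivalence test placed it within 0.5 on the log2 scale at an adjusted p under 0.05.

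By these rules 861 genes (5.98%) separated the conditions. IFN-γ-treated siLuc cells had the higher level at 564 of them (3.91%) and siPRMT7 cells at 297 (2.06%). A further 8042 genes (55.8%) were at similar levels, 4383 of which were also called, and 5504 were neither separated nor similar. The share of similar genes grew from 41.9% at mean rlog values of 4 to 6 to 67.1% at 10 to 12 and was 61.0% above 12. In the authors' deposited table the fold change of the same contrast was at least 1 in size and of the same sign for all 861 separated genes. It was under 0.5 in size for 7985 of the 8042 similar genes.

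**Figure D1:**
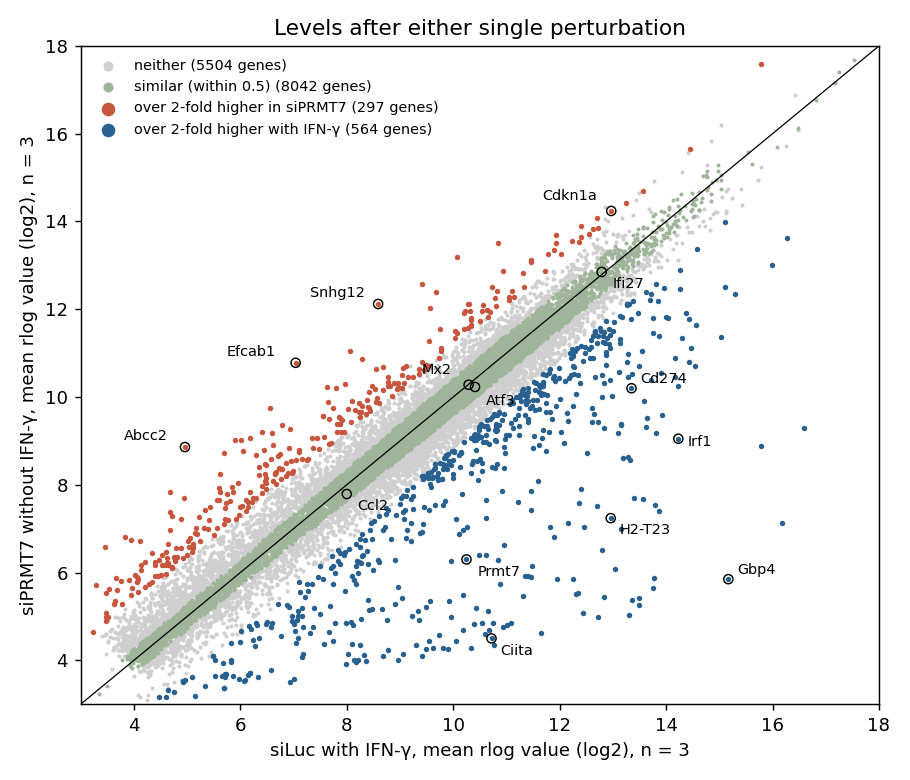
Mean rlog value (log2) of each of the 14407 genes in siLuc cells with IFN-γ (x axis) and in siPRMT7 cells without it (y axis), n = 3 libraries per group, with the line of equal levels. Separated genes are blue (564, higher with IFN-γ) and red (297, higher in siPRMT7), similar genes green (8042) and the others grey (5504); Mx2 and Atf3 lie near the line at about 10, while Gbp4 lies at 15.17 on the x axis and 5.85 on the y axis.

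The genes furthest above their siPRMT7 level with IFN-γ were mostly effectors of cell-autonomous immunity. On the rlog scale, among genes with a mean of at least 6 and without predicted genes, the 10 largest differences were those of Gbp4, Iigp1, Apol6, Tgtp1, Zbp1, Gbp10, Gbp2, Batf2, Prph and Igtp. The order depends on the scale, since the rlog transform shrinks weakly expressed genes: the authors' deposited table gives log2 fold changes of -10.89 for Gbp8 and -9.75 for Irf8, beyond its -7.38 for Gbp2. Guanylate-binding proteins (Gbp) and immunity-related GTPases (Iigp1, Tgtp1, Igtp) attack the membranes of vacuoles that hold intracellular parasites and bacteria. Gbp4 (mm10 chr5:105115767-105139586, minus strand) had 5.39, 5.55 and 6.60 in siPRMT7 cells and 15.18, 15.15 and 15.16 with IFN-γ. Its difference was -9.32 (638-fold on the rlog scale, SE 0.18, adjusted p = 2.71e-21) and became -9.69 without siPRMT7 replicate 3. Iigp1 had 6.85, 6.59 and 7.92 in siPRMT7 cells and 16.17, 16.18 and 16.17 with IFN-γ, a difference of -9.05 that became -9.45 without that replicate. At both genes siPRMT7 replicate 3 lay above the other 2, and no siPRMT7 library came within 8 units of an IFN-γ library.

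These 10 genes differed in how far the knockdown alone had moved them. Gbp2 had 9.20, 9.16 and 9.56 in siPRMT7 cells, all above the 7.22 ± 0.13 of untreated siLuc cells, and 16.60, 16.61 and 16.58 with IFN-γ (difference -7.29, SE 0.07, adjusted p = 1.23e-25). Igtp likewise stood at 8.88 ± 0.22 in siPRMT7 cells against 6.61 ± 0.04 in untreated siLuc cells, and at 15.78 ± 0.04 with IFN-γ. Tgtp1, by contrast, had 4.92, 5.22 and 5.62 in siPRMT7 cells, around its untreated level of 5.16 ± 0.09, and 13.49 ± 0.05 with IFN-γ. Its difference of -8.24 (SE 0.11) became -8.42 without siPRMT7 replicate 3. Batf2, a leucine-zipper transcription factor, was at 4.63 ± 0.08 in siPRMT7 cells, 4.68 ± 0.03 untreated and 11.65 ± 0.07 with IFN-γ. Zbp1, a sensor of nucleic acids in the Z conformation that can start necroptosis, had 5.70, 5.72 and 6.18 in siPRMT7 cells, 5.30 ± 0.06 untreated and 13.78 ± 0.03 with IFN-γ. Prph, which encodes the neuronal intermediate filament peripherin, moved in opposite directions from its untreated level of 6.93 ± 0.24, to 6.08 ± 0.17 after knockdown and to 13.04 ± 0.05 with IFN-γ. Apol6 and Gbp10 were at 5.04 ± 0.29 and 4.98 ± 0.39 in siPRMT7 cells, beside 5.02 and 4.97 untreated, and reads of Gbp10 cannot be assigned with certainty, since 46.3% of its exon bases are shared with Gm43302 on the same strand. Without siPRMT7 replicate 3 the differences of Gbp2, Zbp1, Apol6 and Gbp10 were -7.42, -8.07, -8.40 and -7.96, and those of Igtp, Prph and Batf2 were -7.00, -7.05 and -7.00, against -6.89, -6.96 and -7.03 with it. Members of the Gbp and Tgtp families have near-identical copies, so their values carry the same doubt about the assignment of reads.

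The 10 genes furthest above their IFN-γ level in siPRMT7 cells came from other functions. By the same rule they were Abcc2, Efcab1, Snhg12, Epha7, Car6, Cacna1a, Sema6a, Stmn4, Lcp1 and Coq8a. Abcc2 (mm10 chr19:43782192-43840740, plus strand), an efflux pump for organic anions, had 8.83, 8.88 and 8.88 in siPRMT7 cells and 4.74, 4.95 and 5.20 with IFN-γ (difference 3.90 or 14.9-fold, SE 0.11, adjusted p = 3.44e-18). Its untreated level was 5.70 ± 0.09, so it lay above that level after knockdown and below it with IFN-γ. Efcab1, which encodes an EF-hand calcium-binding protein, had 10.79, 10.72 and 10.83 in siPRMT7 cells and 6.84, 7.06 and 7.22 with IFN-γ, close to the 7.02 ± 0.10 of untreated cells (difference 3.74, SE 0.08). Snhg12 (mm10 chr4:132308677-132311022, plus strand), a host gene of small nucleolar RNAs, had 12.12, 12.12 and 12.13 against 8.73, 8.64 and 8.41, from 8.69 ± 0.10 (difference 3.53, SE 0.06, adjusted p = 7.86e-22). In these genes the 3 libraries of a group lay within 0.5 of each other and the groups were more than 3 units apart.

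The other named genes of this direction shared that pattern to a varying degree. Cacna1a, a voltage-gated calcium channel subunit, had 9.02 ± 0.05 in siPRMT7 cells and 5.90 ± 0.13 with IFN-γ, where the untreated level was 5.92 ± 0.11. Stmn4, a stathmin that acts on microtubules, had 8.72 ± 0.07 against 5.69 ± 0.04, from 5.60 ± 0.31, and Epha7, an ephrin receptor, 9.74 ± 0.06 against 6.56 ± 0.11, from 6.80 ± 0.14. Coq8a, a kinase-like protein needed to make coenzyme Q, had 11.06 ± 0.05 against 8.07 ± 0.09, from 8.84 ± 0.14, and Lcp1, an actin-bundling protein, 9.03 ± 0.03 against 6.02 ± 0.15, from 6.57 ± 0.26. Sema6a, a transmembrane semaphorin, had 13.18 ± 0.04 against 10.08 ± 0.07, from 10.63 ± 0.05. IFN-γ thus lowered Coq8a, Lcp1 and Sema6a by 0.77, 0.55 and 0.55, while the knockdown raised them by 2.22, 2.46 and 2.55. Car6, a secreted carbonic anhydrase, differed from these in that IFN-γ made the larger part of its difference. It was at 11.50 ± 0.04 untreated, 12.58 ± 0.02 in siPRMT7 cells and 9.42 ± 0.15 with IFN-γ.

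Over all separated genes the same asymmetry held as a description. The 297 genes higher in siPRMT7 cells had a median difference of 1.57, with a median of 1.29 for knockdown against untreated siLuc cells and -0.26 for IFN-γ against the same cells. The 564 genes higher with IFN-γ had a median difference of -1.88, with medians of -0.08 for knockdown and 1.89 for IFN-γ. Among these 564 genes, IFN-γ raised 412 by at least 1 on the log2 scale, while the knockdown lowered 91 and raised 71 by at least 1. Both single-perturbation differences use the same untreated libraries, so their values are set side by side and not correlated.

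**Figure D2:**
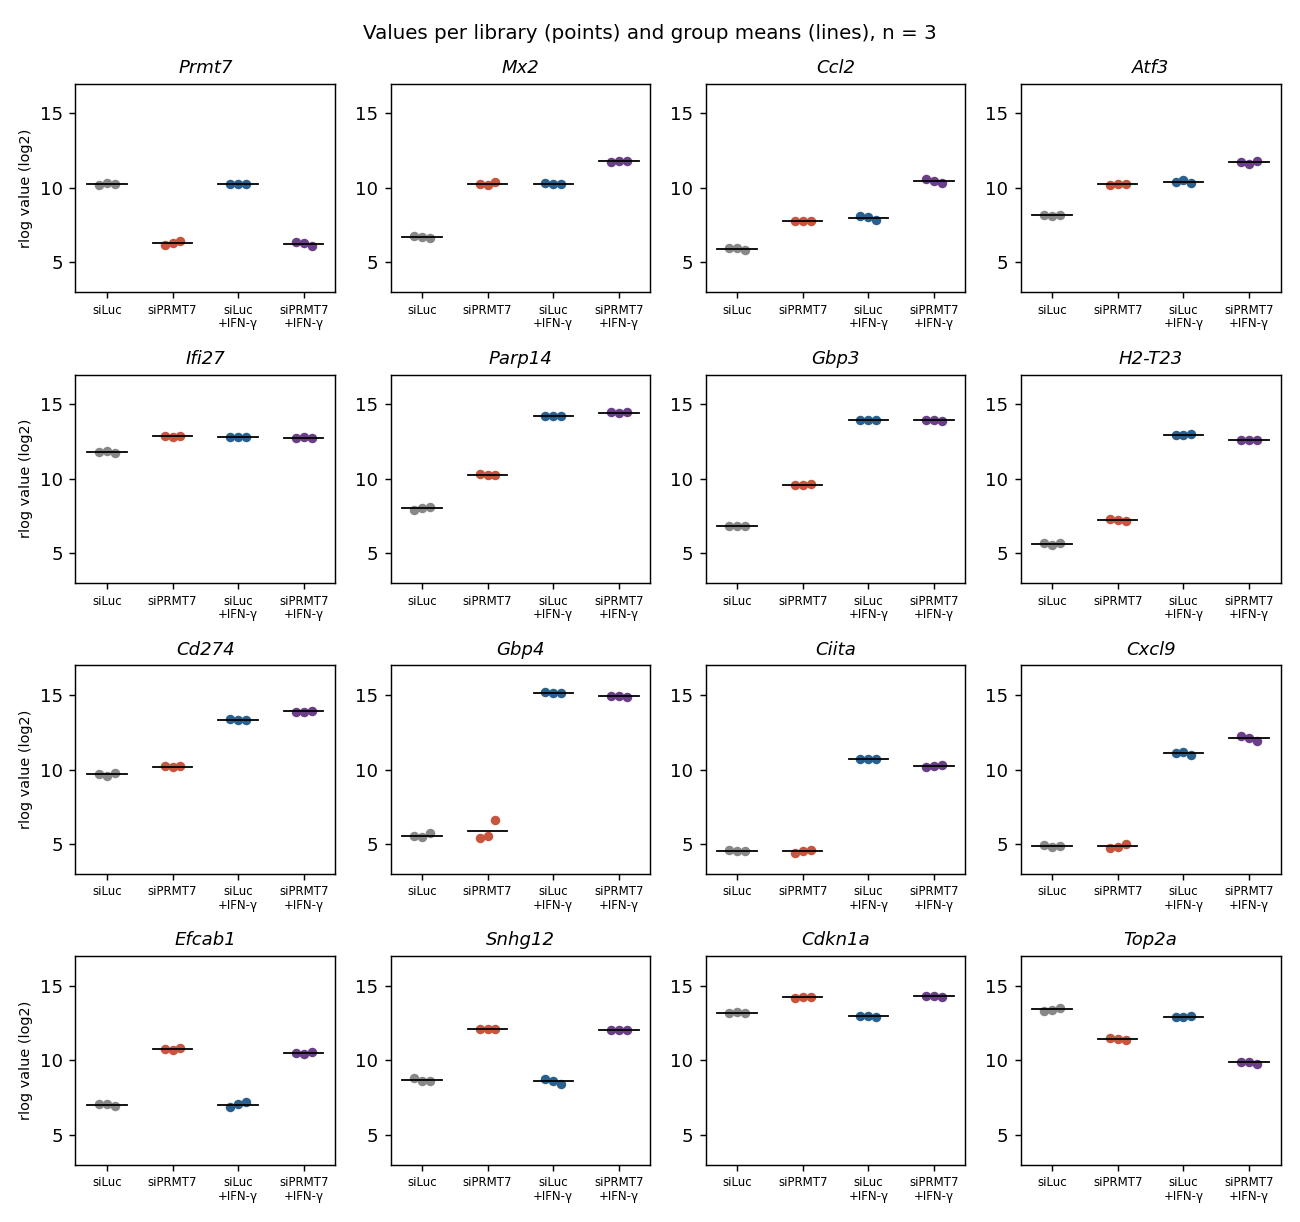
rlog values (log2, y axis) of 16 genes in each of the 12 libraries (points) and group means (lines), in the order of the panels' labels (n = 3 per group; +IFN-γ marks exposure). Mx2, Ccl2, Atf3 and Ifi27 stand at nearly the same height after either single perturbation, Gbp4, Ciita and Cxcl9 are high only in the IFN-γ groups, and Efcab1 and Snhg12 only in the siPRMT7 groups.

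The promoter sequences of some of these genes are printed as examples of windows with and without motifs of interferon-responsive promoters. For genes higher with IFN-γ and for similar genes, only windows holding a match were chosen. No match was required for genes higher in siPRMT7 cells, so the printed windows allow no comparison between these classes. The sequences are RefSeq windows on GRCm38.p6, from 250 bases before to 50 after a gene's start, and 10021 of the 14407 genes tested matched an entry. Both strands were searched for a GAAA repeat (GAAA, any pair of bases, GAAA), a core of the interferon-stimulated response element, and for TTCNNNGAA, the core of the gamma-activated site; a match is in capitals, and overlapping matches run together. In the Tgtp1 window (chr11:48992197-48992496, minus strand) the GAAA repeat and TTCNNNGAA occur, beginning 77 and 88 bases before the start. The Gbp2 window (chr3:142620413-142620712, plus strand) holds the GAAA repeat on the other strand, beginning 59 bases before the start. The Ctso window (chr3:81932351-81932650, plus strand) belongs to a gene at similar levels and holds 2 overlapping matches after the start. The windows of Abcc2 (chr19:43782058-43782357, plus strand) and Snhg12 (chr4:132308428-132308727, plus strand) hold neither motif, which says only that these letters are not in these windows. The windows of Tgtp1 and Gbp2 are not typical, since most windows of genes separated with the higher level under IFN-γ hold no GAAA repeat.
Tgtp1: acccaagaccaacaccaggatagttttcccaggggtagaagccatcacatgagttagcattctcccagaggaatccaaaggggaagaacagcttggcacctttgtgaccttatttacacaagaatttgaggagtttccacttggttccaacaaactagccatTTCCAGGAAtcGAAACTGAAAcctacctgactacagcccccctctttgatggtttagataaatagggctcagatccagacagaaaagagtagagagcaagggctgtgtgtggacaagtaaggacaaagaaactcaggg
Gbp2: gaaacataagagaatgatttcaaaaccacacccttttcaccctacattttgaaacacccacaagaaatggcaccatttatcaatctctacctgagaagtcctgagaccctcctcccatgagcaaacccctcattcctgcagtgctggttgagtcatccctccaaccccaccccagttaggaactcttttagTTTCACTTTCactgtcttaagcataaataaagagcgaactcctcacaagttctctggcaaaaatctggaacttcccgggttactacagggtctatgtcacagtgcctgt
Ctso: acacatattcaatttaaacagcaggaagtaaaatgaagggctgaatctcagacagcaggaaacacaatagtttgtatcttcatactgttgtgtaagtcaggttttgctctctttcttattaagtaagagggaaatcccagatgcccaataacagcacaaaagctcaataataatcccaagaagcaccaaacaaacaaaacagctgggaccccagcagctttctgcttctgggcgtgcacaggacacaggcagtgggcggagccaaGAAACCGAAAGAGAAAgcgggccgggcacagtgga
Abcc2: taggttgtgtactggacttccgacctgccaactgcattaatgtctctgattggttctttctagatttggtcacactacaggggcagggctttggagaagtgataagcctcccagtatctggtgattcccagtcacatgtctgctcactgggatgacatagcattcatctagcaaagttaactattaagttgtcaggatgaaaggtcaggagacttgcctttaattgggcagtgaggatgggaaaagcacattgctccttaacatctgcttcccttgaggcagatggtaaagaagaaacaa
Snhg12: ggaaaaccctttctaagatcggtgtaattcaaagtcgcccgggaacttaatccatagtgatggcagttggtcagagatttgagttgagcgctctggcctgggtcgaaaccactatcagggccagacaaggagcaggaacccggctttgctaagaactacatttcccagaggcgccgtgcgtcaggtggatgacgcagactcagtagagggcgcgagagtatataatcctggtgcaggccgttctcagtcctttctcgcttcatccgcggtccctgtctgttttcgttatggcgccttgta

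Across the genes tested, the GAAA repeat occurred in 3.13% of promoter windows and TTCNNNGAA in 6.88%. Among the genes separated with the higher level under IFN-γ, 411 of 564 had an entry, and the GAAA repeat occurred in 16.8% of their 552 windows and TTCNNNGAA in 12%. Among the genes separated in the other direction the shares were 2.81% and 5.26% of 285 windows, and among similar genes 2.49% and 6.96% of 7237 windows. The shares over all 32851 windows of the table were 3.44% and 8.30%. Within the gene lists, 9 of 11 windows of guanylate-binding proteins and immunity-related GTPases held the GAAA repeat, as did 14 of 30 windows of antiviral genes and 0 of 6 windows of MHC class II genes. These shares describe letters in fixed windows, and no test was made on them.

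Some genes reached nearly the same level by either route. Named here are the 8 similar genes with the largest rise from untreated siLuc cells and the 4 with the largest fall, so their movement away from the untreated level is what chose them and is given as a description. Mx2 (ENSMUSG00000023341.15, mm10 chr16:97536081-97560900, plus strand) headed the rises. Mx2 is a gene of the interferon-induced Mx GTPases and is annotated here as a polymorphic pseudogene, so its transcript need not give a working protein. It had 10.23, 10.20 and 10.41 in siPRMT7 cells and 10.32, 10.28 and 10.26 with IFN-γ. The groups overlapped, the difference was -0.01 (95% interval -0.12 to 0.11, equivalence adjusted p = 7.85e-08), and the untreated level was 6.71 ± 0.07. Cells given both had 11.76, 11.80 and 11.77, above either single perturbation.

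Slfn2, a schlafen gene that keeps mouse T cells quiescent, had 7.26, 7.24 and 7.62 in siPRMT7 cells and 7.30, 7.53 and 7.48 with IFN-γ, from 4.76 ± 0.10 (difference -0.06, 95% interval -0.27 to 0.15). Arid5a, which encodes an RNA-binding protein that stabilises cytokine transcripts, had 9.74 ± 0.04 and 9.69 ± 0.002, from 7.72 ± 0.16 (difference 0.05, interval -0.07 to 0.18). Sod3, the extracellular superoxide dismutase, had 7.25 ± 0.10 and 7.30 ± 0.10, from 5.52 ± 0.18 (difference -0.05, interval -0.25 to 0.15). In all 3 genes the groups overlapped or lay within 0.1 of each other. Atf3, a stress-induced transcription factor, had 10.20, 10.23 and 10.27 in siPRMT7 cells and 10.37, 10.51 and 10.35 with IFN-γ, a called difference of -0.18 (interval -0.28 to -0.07) that stayed within the margin. Ccl2, the chemokine that draws monocytes, had 7.78, 7.80 and 7.78 against 8.08, 8.05 and 7.87 (difference -0.21, interval -0.37 to -0.05). Atf3 and Ccl2 thus rose slightly further with IFN-γ, and in neither did the groups overlap. Cells given both perturbations had 11.70 ± 0.07 for Atf3 and 10.48 ± 0.13 for Ccl2, whose untreated levels were 8.15 ± 0.05 and 5.91 ± 0.07.

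Ctso, the lysosomal protease cathepsin O, and Prkg2, a cGMP-dependent kinase, were the least alike of the 8. Ctso had 7.82 ± 0.06 in siPRMT7 cells and 8.15 ± 0.07 with IFN-γ (difference -0.32, interval -0.48 to -0.17), and Prkg2 had 6.96 ± 0.03 against 6.68 ± 0.10 (difference 0.28, interval 0.08 to 0.47). The equivalence call of Ctso was lost without siPRMT7 replicate 3 (-0.36, adjusted p = 0.0907) and without IFN-γ replicate 1 (-0.36, adjusted p = 0.101). That of Prkg2 was lost when replicate 1 or 3 of either group was left out (0.28 to 0.31) and under median centring (0.37). Of the 4 similar genes that fell, Tenm4, a teneurin adhesion receptor, had 8.44, 8.34 and 8.26 in siPRMT7 cells and 8.36, 8.44 and 8.34 with IFN-γ, from 9.74 ± 0.05. Its groups overlapped, with a difference of -0.03 (interval -0.16 to 0.10). Ttbk1, a kinase of tau, had 7.97 ± 0.07 and 8.0 ± 0.10 from 9.31 ± 0.10, and Kif26a, a kinesin-like protein, 5.85 ± 0.12 and 6.04 ± 0.07 from 7.40 ± 0.13. Megf6 had 8.83 ± 0.10 and 8.52 ± 0.07 from 10.11 ± 0.07, and its equivalence call was lost when libraries were rescaled (difference 0.40) and without siPRMT7 replicate 1 or 3 or IFN-γ replicate 3 (0.34 to 0.35).

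In the interferon and immune lists the separated genes were higher with IFN-γ, except 1 of the checkpoint list, against a background of 3.91% of genes. Separation with the higher level under IFN-γ took in a minority of the sensing (7 of 16), chemokine and cytokine (6 of 15) and checkpoint (4 of 12) lists. It took in most members of the other immune lists. The number separated in each of these 8 lists was the same without siPRMT7 replicate 3. Of 35 antiviral interferon-stimulated genes, 29 were separated with the higher level under IFN-γ, 2 were similar and 4 were neither. Their median difference was -2.47, against -0.02 over all genes tested. This list was also the one, among the 8 immune lists, with the highest median difference of siPRMT7 cells from untreated siLuc cells, 1.49, beside 4.17 for IFN-γ. Parp14, an ADP-ribosyltransferase of the interferon response, had 10.30, 10.23 and 10.22 in siPRMT7 cells and 14.23, 14.22 and 14.23 with IFN-γ, from 8.02 ± 0.09 (difference -3.98, SE 0.04, adjusted p = 1.27e-25). It thus stood between the untreated and the IFN-γ level. Besides Mx2, the similar member was Ifi27, a small mitochondrial interferon-induced protein, with 12.85, 12.83 and 12.88 against 12.79, 12.78 and 12.80, from 11.79 ± 0.07 (difference 0.07, interval -0.01 to 0.14). Trim12c, of the TRIM family, was near the 2-fold line with 11.32 ± 0.09 and 12.30 ± 0.02, from 7.63 ± 0.16, and Lgals3bp, a secreted glycoprotein, had 14.29 ± 0.03 and 14.72 ± 0.06, from 12.85 ± 0.06. At the other end, Oas3, a synthetase of the RNA-decay signal oligoadenylate, had 4.86 in siPRMT7 cells against 10.54 with IFN-γ, and Uba7, the enzyme that activates ISG15, 7.51 against 12.71.

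Guanylate-binding proteins and immunity-related GTPases were separated at 17 of 18 members, with a median difference of -6.05. Gvin1 did not pass the test on the rlog scale, with 3.10 in siPRMT7 cells, 3.18 untreated and 4.25 with IFN-γ. It was weakly expressed, and the authors' deposited table gives it a log2 fold change of -7.20 in this contrast. Gbp3 had 9.55, 9.58 and 9.66 in siPRMT7 cells and 13.93, 13.93 and 13.92 with IFN-γ, from 6.84 ± 0.02 (difference -4.33, SE 0.04, adjusted p = 2.28e-26). Irgm2 and Irgm1, regulatory members of the GTPase family, were at 10.71 and 12.35 in siPRMT7 cells, above their untreated 7.63 and 10.17 and below the 14.54 and 15.29 reached with IFN-γ. Gbp5, Gbp8 and Gbp9 had 4.25 to 4.81 in siPRMT7 cells, within 0.2 of their untreated levels, and 9.91 to 11.02 with IFN-γ.

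Genes of the MHC class I route, which shows peptides of the cell's own proteins to CD8+ T cells, were separated at 18 of 20 measured members, all higher with IFN-γ. Their median difference was -3.52. The class I heavy chain gene H2-K1 had 10.60, 10.50 and 10.55 in siPRMT7 cells and 13.89, 13.95 and 13.89 with IFN-γ, from 8.46 ± 0.14 (difference -3.36, SE 0.05, adjusted p = 9.86e-23). H2-T23, a non-classical class I gene, had 7.32, 7.25 and 7.17 against 12.91, 12.96 and 13.00, from 5.64 ± 0.07. Both genes stood above the untreated level after knockdown and far below the IFN-γ level. Class I genes are related in sequence, so some of their reads may be shared between members of the family. Psmb9, a subunit of the immunoproteasome that cuts peptides for class I, had 5.35, 5.47 and 5.70 in siPRMT7 cells and 12.27, 12.35 and 12.28 with IFN-γ, from 5.18 ± 0.08. Tapbpl and Psmb10 were at 7.90 and 8.64 in siPRMT7 cells, beside 7.93 and 8.80 untreated and 12.41 and 13.28 with IFN-γ. The general chaperones Canx and Pdia3 did not pass the test of separation, with differences of -0.21 and -0.76.

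The MHC class II route, which shows peptides of ingested proteins to CD4+ T cells, separated the conditions at 7 of 8 measured members, with a median difference of -5.03. Its median difference from untreated siLuc cells was 0.07 in siPRMT7 cells and 5.05 with IFN-γ. Ciita, the transactivator of class II genes, had 4.38, 4.55 and 4.58 in siPRMT7 cells, beside 4.59, 4.50 and 4.56 untreated and 10.71, 10.74 and 10.71 with IFN-γ (difference -6.22, SE 0.08, adjusted p = 2.21e-24). H2-Aa, a class II chain, had 4.45 ± 0.12 in siPRMT7 cells and 9.54 ± 0.07 with IFN-γ, and 11.47 ± 0.01 in cells given both. H2-DMb1, a chain of the peptide-exchange factor H2-DM, and the chaperone Cd74 also rose after knockdown alone. H2-DMb1 was at 7.53 against 6.40 untreated and 9.81 with IFN-γ, and Cd74 at 6.80 against 5.72 and 11.89. Because the rlog transform shrinks weakly expressed genes toward their average, the distance of levels near 4 to 5 is understated: the authors' deposited table gives -8.98 for Ciita and -8.15 for H2-Aa in this contrast.

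**Figure D3:**
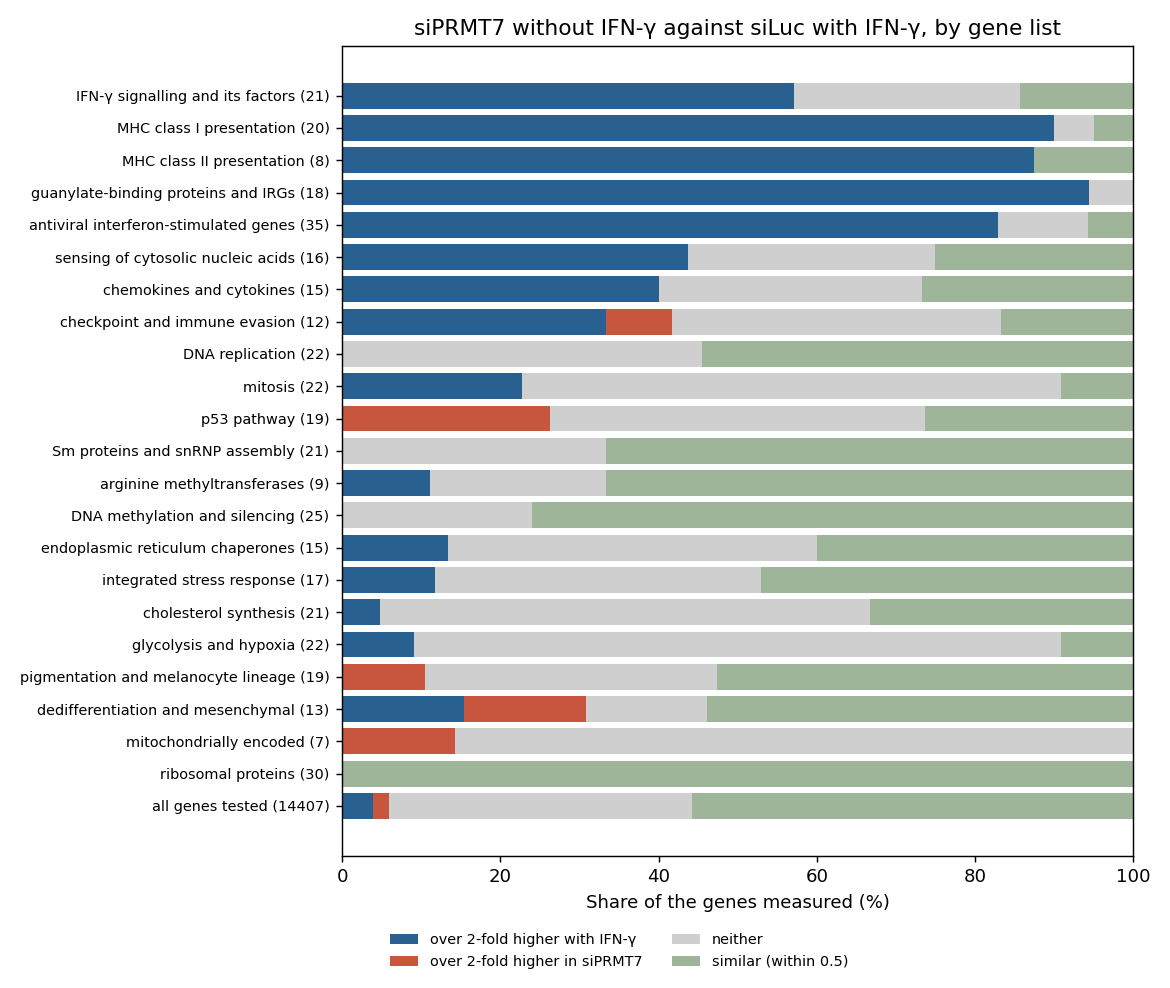
Share of the measured genes of each list (x axis, %; number of genes in brackets) that were over 2-fold higher with IFN-γ, over 2-fold higher in siPRMT7, similar within 0.5 on the log2 scale, or neither, with all 14407 genes as background. The interferon and antigen-presentation lists are mostly higher with IFN-γ, 30 of 30 ribosomal protein genes are similar, and 5 of 19 p53 pathway genes are higher in siPRMT7.

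Among genes of IFN-γ signalling the receptor chains were not separated, while Stat2, Stat3 and Irf1 were. Of 21 such genes, 12 were separated, all higher with IFN-γ, 3 were similar and 6 were neither, with a median difference of -2.30. The receptor chain Ifngr1 was similar, with 8.96 in siPRMT7 cells and 8.70 with IFN-γ, and Ifngr2 was higher in siPRMT7 cells at 11.31 against 10.32 (difference 0.99), without being separated. Jak2 had 9.94, 9.91 and 9.96 in siPRMT7 cells and 11.35, 11.40 and 11.35 with IFN-γ, on either side of its untreated 10.35 ± 0.14. Irf1, a transcription factor of the IFN-γ response, had 9.08, 8.96 and 9.11 against 14.24, 14.21 and 14.23, from 8.82 ± 0.08. Irf1 was thus 0.23 above its untreated level in siPRMT7 cells. Irf9, a factor of the type I interferon response, was at 10.40 in siPRMT7 cells and 11.15 with IFN-γ, from 9.16, a difference of -0.75 that was not separated. Socs3, a feedback inhibitor of cytokine receptors, went in opposite directions, to 6.27 ± 0.02 after knockdown and 9.95 ± 0.14 with IFN-γ from 7.38 ± 0.13.

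Genes linked to the sensing of nucleic acids, both sensors and other members of these pathways, were mixed. Of 16 measured, 7 were separated with the higher level under IFN-γ, 4 were similar and 5 were neither. The DNA sensor Cgas and the transcription factor Irf3 were similar, with 8.89 and 9.80 in siPRMT7 cells and 8.86 and 9.78 with IFN-γ, and both lay within 0.2 of their untreated levels. Ddx58, which encodes the RNA sensor RIG-I, stood at 11.68 in siPRMT7 cells and 12.42 with IFN-γ, from 9.62, and the double-stranded RNA kinase Eif2ak2 at 11.51 and 12.39, from 10.07. Neither was separated. Samhd1, a triphosphohydrolase that depletes nucleotides, had 9.43, 9.18 and 9.31 in siPRMT7 cells and 13.63, 13.67 and 13.58 with IFN-γ, below and above its untreated 10.68 ± 0.08 (difference -4.32, SE 0.06, adjusted p = 5.35e-24).

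Chemokines fell into opposite classes. Of 15 measured chemokine and cytokine genes, 6 were separated with the higher level under IFN-γ, 4 were similar (Cxcl1, Ccl2, Ccl5 and Tnf) and 5 were neither. Cxcl9, which draws T cells through CXCR3, had 4.74, 4.78 and 5.01 in siPRMT7 cells and 11.11, 11.15 and 10.99 with IFN-γ, from 4.86 ± 0.06 (difference -6.24, SE 0.09, adjusted p = 1.57e-23; -6.33 without siPRMT7 replicate 3). Cxcl10, a ligand of the same receptor, had 13.03, 12.97 and 13.00 against 15.96, 16.07 and 15.95, from 13.18 ± 0.07. Both CXCR3 ligands stood at or just below their untreated level after knockdown. Ccl5, a chemokine that draws T cells, had 9.95, 9.99 and 10.02 against 10.28, 10.39 and 10.19, from 8.73 ± 0.10 (difference -0.30, interval -0.43 to -0.17). Cxcl1, which draws neutrophils, had 7.50, 7.75 and 7.85 against 7.42, 7.63 and 7.46, from 6.36 ± 0.12 (difference 0.20, interval 0.01 to 0.38). These 2 chemokines rose under both perturbations to levels within the margin, and cells given both had 12.39 ± 0.14 for Ccl5 and 10.71 ± 0.04 for Cxcl1. Lif, a cytokine of the interleukin 6 family, was higher in siPRMT7 cells at 7.64 against 6.46, from 6.22.

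Of 12 measured genes of checkpoint and immune evasion, 4 were separated with the higher level under IFN-γ and 1, Lgals3, with the higher level in siPRMT7 cells. Cd274, which encodes PD-L1, had 10.23, 10.14 and 10.24 in siPRMT7 cells and 13.39, 13.32 and 13.36 with IFN-γ, from 9.70 ± 0.09 (difference -3.15, SE 0.04, adjusted p = 1.63e-23). A gene on the opposite strand covers 14.1% of its exon bases, and the sources used here do not give whether counting used strand. Cd47, the signal against phagocytosis, was at 9.80 ± 0.01 and 11.93 ± 0.07, from 9.82, and Serpinb9, an inhibitor of granzyme B, at 8.32 ± 0.09 and 10.55 ± 0.03, from 7.55. Lgals3, a galactoside-binding lectin, had 12.07, 12.10 and 12.16 in siPRMT7 cells and 10.42, 10.21 and 10.20 with IFN-γ, from 9.27 ± 0.09 (difference 1.83, SE 0.05, adjusted p = 8.67e-18).

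Genes of the cell cycle were at the median lower after either perturbation than in untreated siLuc cells, and further down after knockdown than with IFN-γ. Of 22 replication genes, 12 were similar and 0 separated, against a background of 55.8% similar genes. Their medians were -1.11 for knockdown and -0.72 for IFN-γ against untreated cells. In siPRMT7 cells 17 of the 22 were called lower, against 39.1% of all genes, and 3 higher, against 34.6%. Mcm5, Mcm6 and Pola1, the replication genes named by rule, had differences of -0.74, -0.71 and -0.81. Of 22 mitosis genes, 2 were similar and 5 were separated with the higher level under IFN-γ, with medians of -1.59 and -0.68. All 22 mitosis genes were called with the lower level in siPRMT7 cells, against 39.1% of all genes, and the 5 separated stand beside a background of 3.91%. In a bulk sample fewer cycling cells and less of these transcripts per cell cannot be told apart. Pcna, the sliding clamp of replication, had 11.80, 11.78 and 11.79 in siPRMT7 cells and 11.92, 11.95 and 11.90 with IFN-γ, from 12.65 ± 0.02 (difference -0.13, interval -0.21 to -0.05). Mki67, a marker of cycling cells, had 13.03 ± 0.05 against 13.17 ± 0.05, from 14.25 ± 0.13, and was similar. Top2a, the topoisomerase of dividing cells, had 11.48, 11.42 and 11.37 against 12.95, 12.93 and 12.96, from 13.43 ± 0.10 (difference -1.52, SE 0.05, adjusted p = 2.23e-17). Top2a thus parted the conditions where Pcna and Mki67 did not, and cells given both had 9.88 ± 0.08. The mitosis genes separated were Ccnb2, Top2a, Plk1, Kif11 and Cenpe, and 2 genes of the list were separated under quantile normalization or median centring.

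Targets of the p53 pathway were higher in siPRMT7 cells. Of 19 measured, 17 were called in that direction, against 34.6% of all genes, and 5 were separated, against 2.06%. Their median difference was 0.84, with 0.79 for knockdown and -0.23 for IFN-γ against untreated siLuc cells. Cdkn1a, which encodes the cell cycle inhibitor p21, had 14.22, 14.25 and 14.23 in siPRMT7 cells and 13.00, 13.01 and 12.90 with IFN-γ, from 13.20 ± 0.03 (difference 1.27, SE 0.04, adjusted p = 1.41e-17). Ccng1, cyclin G1, had 14.06, 14.08 and 14.11 against 12.69, 12.74 and 12.69, from 13.43 ± 0.06. Both genes lay above their untreated level after knockdown and below it with IFN-γ. The other separated members were Tnfrsf10b, a death receptor, with 9.07 against 7.34, Plk2 with 10.11 against 8.41, and Trp53inp1 with 13.26 against 12.03, from untreated levels of 7.75, 9.08 and 12.18. Fas, a death receptor gene that IFN-γ also induces, was the member called the other way, with 5.80 in siPRMT7 cells and 6.57 with IFN-γ, and Trp53 itself was similar at 11.35 and 11.21.

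**Figure D4:**
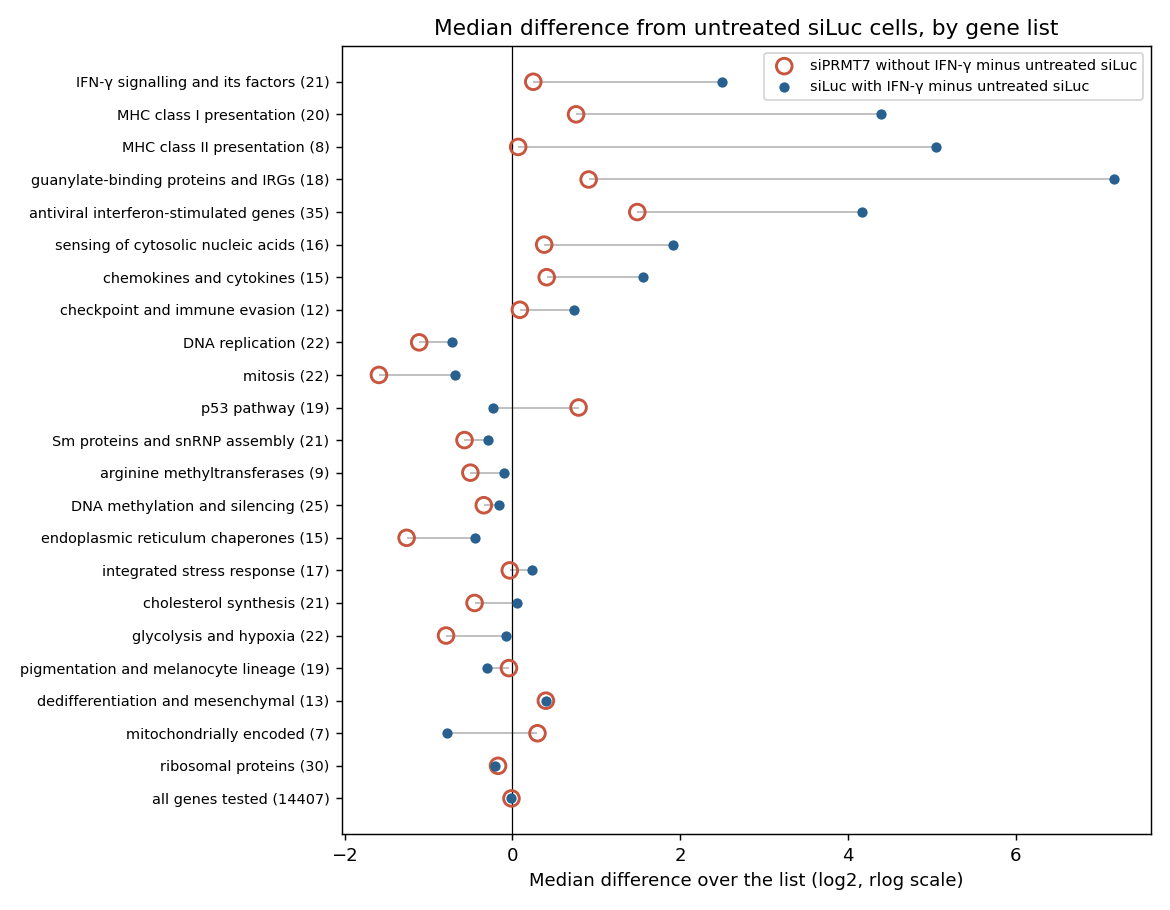
Median difference over each list (x axis, log2 on the rlog scale; number of genes in brackets) from untreated siLuc cells for siPRMT7 cells without IFN-γ (open red circles) and siLuc cells with IFN-γ (blue points), joined by a line; both share the untreated libraries. The interferon lists reach medians of up to 7.17 with IFN-γ and up to 1.49 after knockdown, mitosis falls further after knockdown (-1.59 against -0.68), and the p53 pathway and mitochondrially encoded genes lie on opposite sides of 0.

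Secretory and metabolic lists separated few genes, but leaned toward lower levels in siPRMT7 cells. Of 15 chaperones of the endoplasmic reticulum, 13 were called lower in siPRMT7 cells, against 39.1% of all genes, and 2 were separated (Calr and Pdia4), a number that fell to 1 without replicate 3 of either group and when libraries were rescaled. Pdia4, a disulfide isomerase, had 12.89, 12.90 and 12.90 in siPRMT7 cells and 14.24, 14.29 and 14.25 with IFN-γ, from 14.22 ± 0.04 (difference -1.36, SE 0.04, adjusted p = 1.17e-18). Its IFN-γ level was the untreated level within 0.04. Of 22 genes of glycolysis and hypoxia, 20 were called lower in siPRMT7 cells and 2 were separated (Pfkp and Aldoc), 1 without siPRMT7 replicate 3 or after rescaling. Gapdh had 14.32, 14.31 and 14.05 against 15.22, 15.07 and 15.06, from 15.26 ± 0.03 (difference -0.89, SE 0.07). Of 21 genes of cholesterol synthesis, 18 were called lower in siPRMT7 cells and 1 was separated, Ebp, a sterol isomerase, which had 9.92 ± 0.03 against 11.27 ± 0.03, from 10.46 ± 0.01.

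The integrated stress response had members on both sides, but more of them lower in siPRMT7 cells. It had 12 of 17 measured members called lower, against 39.1% of all genes, and 5 called higher, against 34.6%. Its transcription factors Atf4, Atf3, Atf5 and Ddit3 were at similar levels, with differences from -0.18 to 0.39. In all 8 of 17 members were similar, a share below the 55.8% of all genes. Phgdh, the first enzyme of serine synthesis, was separated, with 9.64, 9.65 and 9.45 in siPRMT7 cells and 11.14, 11.27 and 11.21 with IFN-γ, from 11.46 ± 0.04 (difference -1.63, SE 0.06, adjusted p = 1.65e-16). Aldh1l2, a mitochondrial enzyme of folate metabolism, was the other separated member, at 10.34 against 11.69, from 10.84, and shares 14.1% of its exon bases with a gene on the opposite strand.

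The lists of the cell's basic machinery are read against the 55.8% of all genes that were similar. All 30 ribosomal protein genes measured were similar, with differences from -0.34 to 0.36, although Rpl4, Rpl5 and Rpl10a lost that call under quantile normalization (0.61, 0.48 and 0.54) and Rpl10a also under median centring (0.45). The value of Rpl5 is uncertain, as 24.3% of its exon bases lie opposite those of Fam69a. Of 21 genes of Sm proteins and their assembly into snRNPs, 14 were similar and 0 separated, with a median of -0.27. In siPRMT7 cells 16 of them were called lower, against 39.1% of all genes, and 0 higher. Of 25 genes of DNA methylation and silencing, 19 were similar and 0 separated, with a median of -0.22. Among 9 arginine methyltransferase genes with their partner Wdr77, Prmt7 was separated and 6 were similar, while Prmt1 was lower and Prmt6 higher in siPRMT7 cells, by -0.64 and 0.65. The shares of similar genes in the Sm and methyltransferase lists lay near that of all genes.

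Of 19 measured pigmentation and lineage genes, 10 were similar, a share close to the 55.8% of all genes. In siPRMT7 cells 12 were called higher, against 34.6% of all genes, and 5 lower, against 39.1%. The median difference of the list was 0.22, with -0.04 for knockdown and -0.3 for IFN-γ against untreated siLuc cells. The similar genes included the lineage factors Mitf, Sox10 and Pax3 and the pigment enzymes Tyrp1 and Dct. Tyrp1 had 17.15, 17.18 and 17.15 in siPRMT7 cells and 17.13, 17.21 and 17.16 with IFN-γ, groups that overlapped. Tyr, the rate-limiting enzyme of pigment synthesis, was at 13.49 against 12.63, from 13.62, a called difference of 0.86. Pmel and Mlana lay the other way, with medians of 16.08 and 14.46 in siPRMT7 cells and 16.49 and 14.85 with IFN-γ. Oca2, a melanosomal anion transporter, was separated, with 8.65, 8.69 and 8.72 against 6.20, 6.39 and 6.29, from 7.36 ± 0.10 (difference 2.39, SE 0.08, adjusted p = 9.59e-17). Trpm1, the other separated member, had 13.35 ± 0.02 against 11.89 ± 0.05, from 12.77 ± 0.04. Both were above their untreated level after knockdown and below it with IFN-γ.

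Of 13 measured genes of dedifferentiation and mesenchymal state, 7 were similar, near the 55.8% of all genes, and 4 were separated, 2 in each direction, against 5.98% of all genes. Fn1, fibronectin, had 12.52, 12.49 and 12.40 in siPRMT7 cells and 14.30, 14.25 and 14.27 with IFN-γ, from 12.29 ± 0.14 (difference -1.81, SE 0.05, adjusted p = 8.42e-18), and the receptor kinase Axl had 10.05 against 11.65, on either side of its untreated 10.80. The neural crest factor Sox9 was higher in siPRMT7 cells, with 8.17, 8.31 and 8.39 against 6.58, 6.70 and 6.77, from 7.10 ± 0.05 (difference 1.61, SE 0.11, adjusted p = 1.76e-11).

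All 7 mitochondrially encoded genes that passed the filter, of 13 in the list, were called higher in siPRMT7 cells, against 34.6% of all genes, with a median difference of 1.15. One was separated in that direction, as were 2.06% of all genes. This gene, mt-Cytb, a subunit of respiratory complex III, had 17.67, 17.53 and 17.57 in siPRMT7 cells and 15.73, 15.78 and 15.87 with IFN-γ, from 16.97 ± 0.28 (difference 1.80, SE 0.09, adjusted p = 1.33e-13). The number separated was 5 under quantile normalization and 2 under median centring. The share of all 23 mitochondrially encoded genes tested, in and outside the list, moved the same way, as given above for these groups. This share was 1.84 ± 0.35% in untreated siLuc cells. Its part in these differences was not tested.

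Most markers of other cell types were under 4 in every library, but some were clearly expressed. The only leukocyte markers measured were Cd68 and Csf1r, with 6.46 and 8.61 in siPRMT7 cells and 5.31 and 8.38 with IFN-γ, from 5.26 and 8.53 untreated, and Ptprc, Cd3e and Itgam were among those under 4 in every library. The value of Csf1r is uncertain, since it shares 15.1% of its exon bases with the more highly expressed Hmgxb3 on the opposite strand. Of the other markers, 4 of 13 were measured, namely Col1a1, Col1a2, Pdgfra and Pdgfrb. Pdgfrb had 7.87 in siPRMT7 cells and 8.25 with IFN-γ. Col1a2, a collagen chain, was separated, with 9.79, 9.88 and 9.99 in siPRMT7 cells and 7.52, 7.64 and 7.77 with IFN-γ, from 9.26 ± 0.19. Whether RNA of other cells has a part in these values was not tested.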

How the data were processed

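The deposited table holds 1 line per gene with rlog values per library and the authors' comparisons. Per the file headers, the rlog values are on a log2 scale; the authors' read counts behind them are not used here. The transform adjusts for library size and shrinks weakly expressed genes. Fold changes (log2) and adjusted p-values of the authors are in the same table, per the file headers. The submitters' processing notes name DESeq2 1.26.0, HOMER 4.11.1, STAR 2.7.1a and Trimmomatic 0.39, with build mm10 (GRCm38). All per-library columns were mapped to samples by name. For 115 symbols with several lines, that of the highest mean was used.

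The 4 group means were fitted to all 12 libraries with limma 3.58.1 in R 4.3.3 (variance trend, 2-sided tests, Benjamini-Hochberg adjustment over the 14407 genes; 8 residual and 12.4 prior degrees of freedom, median residual SD 0.0751), without the replicate number in the model. Separation used limma's treat with a null of 2-fold, and similarity used a pair of one-sided tests at a margin of 0.5, adjusted alike. The steps were tested on simulated data. The groups, the 24 gene lists and the rule for named genes were chosen with earlier results of these data known. Named by rule were Prmt7, the 10 largest separated differences in each direction (mean of at least 6, groups not overlapping, predicted genes left out), 8 similar genes that rose and 4 that fell, at most 3 called members per list, by smallest p, and at most 2 similar members per immune list. Further list members were named after their values were seen, and some are not reported here.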

Additional observations from a re-analysis of the deposited data

How the results depend on the processing

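The counts of called and of separated genes stayed within 1.5 times of those reported under quantile normalization, median centring, a minimum mean of 6 or none, a fit to the 6 libraries compared, no variance trend, a replicate block, and without each library in turn. Leaving out 1 library gave 10060 to 10166 called, 804 to 828 separated and 7496 to 7800 similar genes. Of the 861 separated genes, 783 were separated under quantile normalization and 785 under median centring, which moved the median of all genes to 0.05 and 0.07. Quantile normalization gave 5968 called genes higher in siPRMT7 cells and 4680 lower. An adjusted p under 0.05 with a size of at least 1, in place of the treat test, gave 1366 separated genes. The number of similar genes depended on the margin, with 1949 at 0.25 and 12569 at 1, and reached 26369 with no filter on the mean, where 33486 genes were tested.

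The sign of the list median turned for arginine methyltransferases (0.01 under quantile normalization), ribosomal proteins (0.19 under quantile normalization, 0.05 under median centring), dedifferentiation (-0.01 with a minimum mean of 6) and markers of fibroblasts, endothelium and keratinocytes (-0.01 without IFN-γ replicate 2, 0.02 with it); the cause was not tested. No gene named by rule outside the similar genes lost its adjusted p under 0.05 or turned its sign in these fits. Further list members named in the text were not followed gene by gene. List members near the 2-fold line lost their separation, as the counts above for mitosis, chaperones and glycolysis show. For genes named by rule outside the similar genes, the authors' fold changes differed from the rlog differences by more than the spread between replicates 103 times. Similar genes named by rule lost their call 35 times, 19 of them at the margin of 0.25.

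Replicate numbers did not meet the criterion for pairing (every correlation over 0.1): deviations from group means correlated at 0.06, 0.07 and 0.06 between the same-numbered libraries of the groups compared, and at -0.12 to 0.22 over all groups. Each library of the groups compared still correlated best with its own number, a hint from the data and not from the design. With the replicate block 10709 genes were called, 876 separated and 8085 similar. Depth could not be read from rlog values beyond the library totals, and the median SD within groups ran from 0.14 at means of 4 to 6 to 0.047 at 12 and above.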
